A study of Mus musculus with 67 samples.

Results

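Monocytes that had been transferred into mice and recovered 36 h later were compared with those recovered at 24 h. The members are the 8 graft libraries at those times, of 67 libraries in the whole series and 26 in the transfer experiment: 2 libraries from blood and 2 from spleen at 36 h, and 2 from blood and 2 from spleen at 24 h. They were chosen by their labels alone, and tissue was kept as a block, so that each 36 h library was set against the 24 h libraries of its own tissue. All come from C57BL/6 mice of 8 weeks, with no genotype or treatment named other than the transfer. Blood cells were sorted by flow cytometry after a ficoll gradient and spleen cells after lysis of red cells with ACK buffer. The labels name Ly6C+ marrow monocytes as the cells taken before transfer. They do not give the gate of the recovered grafts, the marker that told donor from host, the host's state, or whether any 2 libraries came from separate animals. The p-values below rest on the spread between libraries of the same group, taken over all 26 of the transfer experiment. That spread may be technical. Hour of day and the session of harvest may also differ between 24 h and 36 h. They cannot be told apart from time after transfer, and their part was not tested.

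Ly6C+ monocytes leave the bone marrow, circulate for a short time, and in the steady state either enter tissues or convert in the blood into Ly6C- monocytes that patrol the vessel wall. The conversion lowers genes such as Ly6c2 and Ccr2, raises Cx3cr1, Nr4a1 and genes of lipid uptake, and needs the transcription factor C/EBPb in mice. The chaperones of the Hsp90, Hsp70 and Hsp110 families fold client proteins, and their genes are textbook targets of heat shock factor 1, which is released when unfolded proteins occupy the chaperones.

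Levels are given as RPM, the deposited value scaled so that the listed genes of a library sum to 1000000, and differences as log2 of RPM plus a pseudocount of 1. The spacing of the deposited values gave 547942 and 705851 reads on listed genes for the spleen and 804514 and 703059 for the blood libraries at 36 h, against 1184760 and 957140 for spleen and 736808 and 744952 for blood at 24 h. Values of a pair are given with the library labelled AC before B for blood and B before C for spleen, except sums over a list, which are given with the lower first. Replicates correlated over 12096 genes at r = 0.917 in blood and 0.874 in spleen at 36 h, and at 0.803 in blood and 0.871 in spleen at 24 h. The monocyte markers Csf1r at 1566 to 2112 RPM, Lyz2 at 8332 to 15880 RPM, Spi1 at 703 to 1281 RPM and Cx3cr1 at 467 to 753 RPM were present in all 8 libraries. Gapdh, a gene that every cell uses, was listed at 0 in 6 of the 8, so a gene at 0 is described below only as listed at 0. Red cell RNA was higher at 36 h in spleen and overlapped between the times in blood. The 14 erythroid markers in the table summed to 8346 and 11965 RPM in blood and 1547 and 4588 RPM in spleen at 36 h, against 4116 and 9158 RPM in blood and 154 and 732 RPM in spleen at 24 h. Its part in the results below was not tested, and in such bulk libraries fewer cells of a type and less RNA per cell cannot be told apart.

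At 36 h the grafts of both tissues held fewer transcripts of the chaperones Hsp90ab1, Hsph1 and Hspa1b and of Fkbp5, Erp29 and Psap than at 24 h, and more of Apoe, Apoc2 and Lpl, of the survival gene Bcl2a1b, of Il1b and of the lectin Clec12a. Over both tissues 235 of 12096 genes passed the test, 1.94% of those tested (limma, Benjamini-Hochberg adjusted p under 0.05). Of these, 194 were higher at 36 h, 1.60% of the genes tested, and 41 were lower, 0.339%. Within single tissues 388 genes passed in blood, 3.21%, with 344 higher (2.84%) and 44 lower (0.364%). In spleen 70 passed, 0.579%, with 63 higher (0.521%) and 7 lower (0.0579%). The difference in response between the tissues passed for 57 genes, 0.471%, with the blood change above the spleen change in 40 of them. At an unadjusted p under 0.05, 12.1% of all genes were higher and 3.91% lower over both tissues, 61.2% had a log2 difference above 0 and 36.7% below 0. By limma voom on the recovered reads 361 genes were higher, 2.98%, and 52 lower, 0.430%. The median log2 difference over all genes was 0.19, and quantile normalization moved it to -0.03 and the split to 84 higher and 48 lower.

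A gene was taken to move alike when it passed the test over both tissues and both 36 h libraries lay on the same side of both 24 h libraries in blood and, the same way, in spleen. This held for 146 genes, 1.21%: 114 genes that were higher, 0.942% of those tested, and 32 that were lower, 0.265%. Without the demand for a call, 600 genes, 4.96%, were higher without overlap in each tissue and 319, 2.64%, were lower. Of the 114 risers 45 were listed at 0 in both blood libraries of 24 h, while 31 of the 32 fallers were above 0 in all 8 libraries. Among the 2039 genes with a mean of 100 RPM or more, 38 were higher and 26 lower. The test borrows its estimate of spread from all 26 libraries. A limma fit to the 8 grafts alone called 0 genes over both tissues, with 1106 at an unadjusted p under 0.05, and limma voom on the recovered reads called 413. The count moved with single libraries. Without the blood libraries of 36 h labelled AC and B it was 78 and 72, and without that of spleen at 36 h labelled C it was 137. Without the blood libraries of 24 h labelled AC and B it was 600 and 513, and without those of spleen at 24 h labelled B and C it was 652 and 50. Of the 50 calls, 44 were among the 235.

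**Figure D1:**
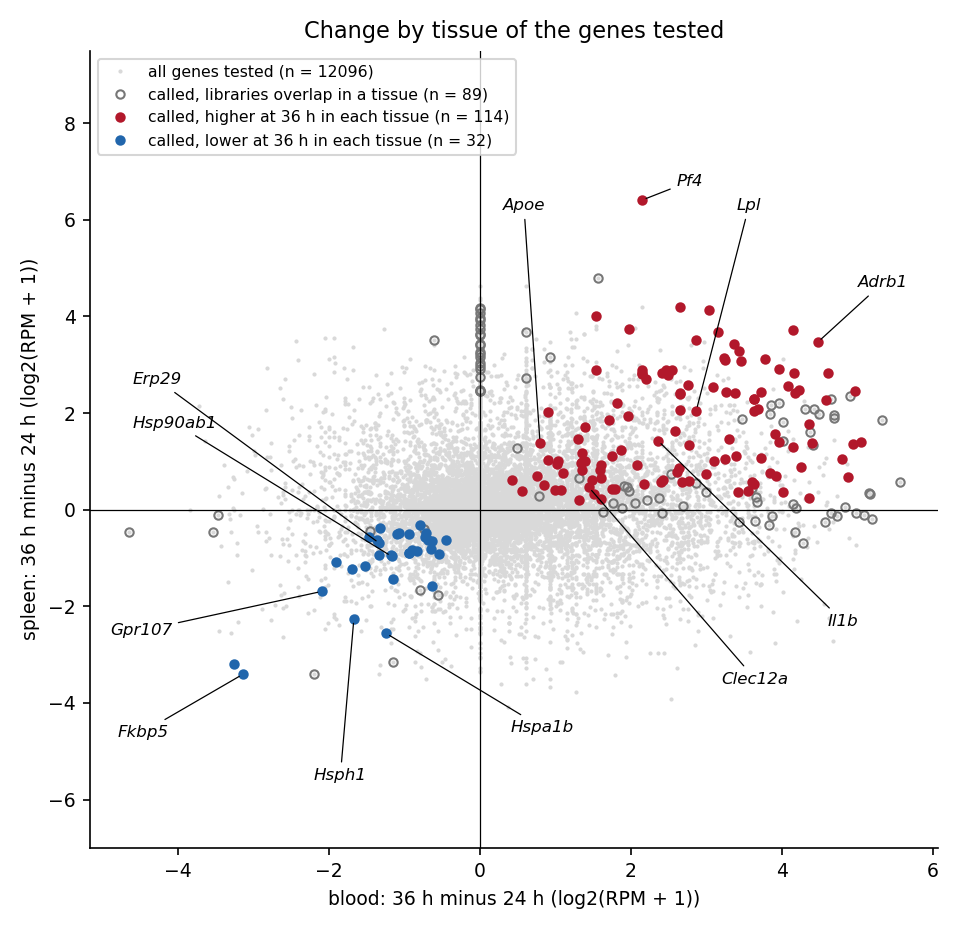
Log2 difference, 36 h minus 24 h, in blood (x axis) and in spleen (y axis) for each gene tested (grey), with the 235 genes called over both tissues marked. The 114 genes higher in each tissue lie in the upper right, the 32 lower in each lie in the lower left, and the called genes whose libraries overlap in a tissue are open circles.

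Only 4 genes passed the test in blood alone and again in spleen alone with the same direction, and 3 of them fell. Hsp90ab1, the constitutive cytosolic Hsp90, had 995 and 1017 RPM in blood and 947 and 1095 in spleen at 36 h, against 2302 and 2222 RPM in blood and 1701 and 2338 in spleen at 24 h. The 4 libraries of 36 h lay close together and below all 4 of 24 h. The log2 difference was -1.07 ± 0.14 (SE) with an adjusted p of 0.00086 over both tissues, -1.17 in blood (adjusted p = 0.00244) and -0.97 in spleen (adjusted p = 0.0242; limma). Fkbp5, an immunophilin that binds Hsp90 in steroid receptor complexes and is itself a glucocorticoid target, had 14.9 and 5.70 RPM in blood and 18.4 and 5.70 in spleen at 36 h, against 220.0 and 36.4 RPM in blood and 92.9 and 155 in spleen at 24 h. Each 36 h library was lower than each 24 h library, though the 24 h blood libraries differed several-fold from each other. Its log2 difference was -3.27 ± 0.55 (SE) (adjusted p = 0.0044), -3.14 in blood (adjusted p = 0.0305) and -3.41 in spleen (adjusted p = 0.0482, limma). Psap, the precursor of the saposins that help lysosomal enzymes degrade sphingolipids, had 3584 and 2604 RPM in blood and 2199.5 and 2427 in spleen at 36 h, against 4907 and 4679.7 RPM in blood and 3529 and 4625 in spleen at 24 h. For Psap the log2 difference was -0.73 ± 0.13 (SE) (adjusted p = 0.00507, limma). It was -0.65 in blood and -0.81 in spleen, both just under the threshold (limma adjusted p = 0.0499 and 0.0406). The fourth, Zfp605, a zinc finger gene, was listed at 0 in all 4 libraries of 24 h. It had 3.94 and 7.01 RPM in blood and 23.7 and 12.7 RPM in spleen at 36 h (limma adjusted p = 0.00169). In those blood libraries 3 reads would be 3.73 and 4.27 RPM, so its blood values stood near the floor. The size of its change depends on the pseudocount, and Zfp605 was chosen for mention after its values were seen.

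Further members of the chaperone machinery fell in the same libraries. Hsph1, an Hsp110 that serves as exchange factor for Hsp70, had 16.2 and 10.1 RPM in blood and 29.4 and 11.4 in spleen at 36 h, against 31.1 and 59.2 RPM in blood and 134 and 63.5 in spleen at 24 h. For Hsph1 the log2 difference was -1.97 ± 0.45 (SE) (adjusted p = 0.0265). Hspa1b, the stress-inducible Hsp70, had 106 and 135 RPM in blood and 40.3 and 11.4 in spleen at 36 h, against 286 and 282 RPM in blood and 108 and 162 in spleen at 24 h. The times did not overlap within a tissue, but blood held more than spleen, and the blood libraries of 36 h overlapped the spleen libraries of 24 h. Its log2 difference was -1.90 (adjusted p = 0.0447), and since it is nearly identical to Hspa1a the split of reads between the pair is uncertain. Hspa1a itself had a log2 difference of -0.41 (adjusted p = 0.756). Hsp90aa1, the inducible Hsp90, had 37.2 and 41.2 RPM in blood and 49.1 and 56.5 in spleen at 36 h, against 80.2 and 126 RPM in blood and 92.9 and 112 in spleen at 24 h, and every library of 36 h was below every library of 24 h (log2 -1.14, adjusted p = 0.0401). The gene listed as l7Rn6, whose present symbol is Hikeshi and whose product carries Hsp70 into the nucleus under heat stress, had 37.2 and 27.2 RPM in blood and 38.1 and 58.3 in spleen at 36 h, against 104 and 106 RPM in blood and 69.2 and 182 in spleen at 24 h. For l7Rn6 the log2 difference was -1.46 (adjusted p = 0.0265, limma). Left out one at a time, no library ended the calls of Hsp90ab1, Fkbp5 or Psap. A fit to the 12 grafts alone, of 24 h, 36 h and 48 h, kept that of Hsp90ab1 and ended those of Fkbp5 and Psap. The call of Psap also ended with array weights and without a trend. The calls of Hsph1 and Hspa1b held in 3 of 8 such fits, that of Hsp90aa1 in 2 and that of l7Rn6 in 4. Their highest adjusted p values were 0.11 for Hsph1 without the blood library of 36 h labelled B, and 0.19 for Hspa1b, 0.15 for Hsp90aa1 and 0.16 for l7Rn6 without the spleen library of 24 h labelled C.

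**Figure D2:**
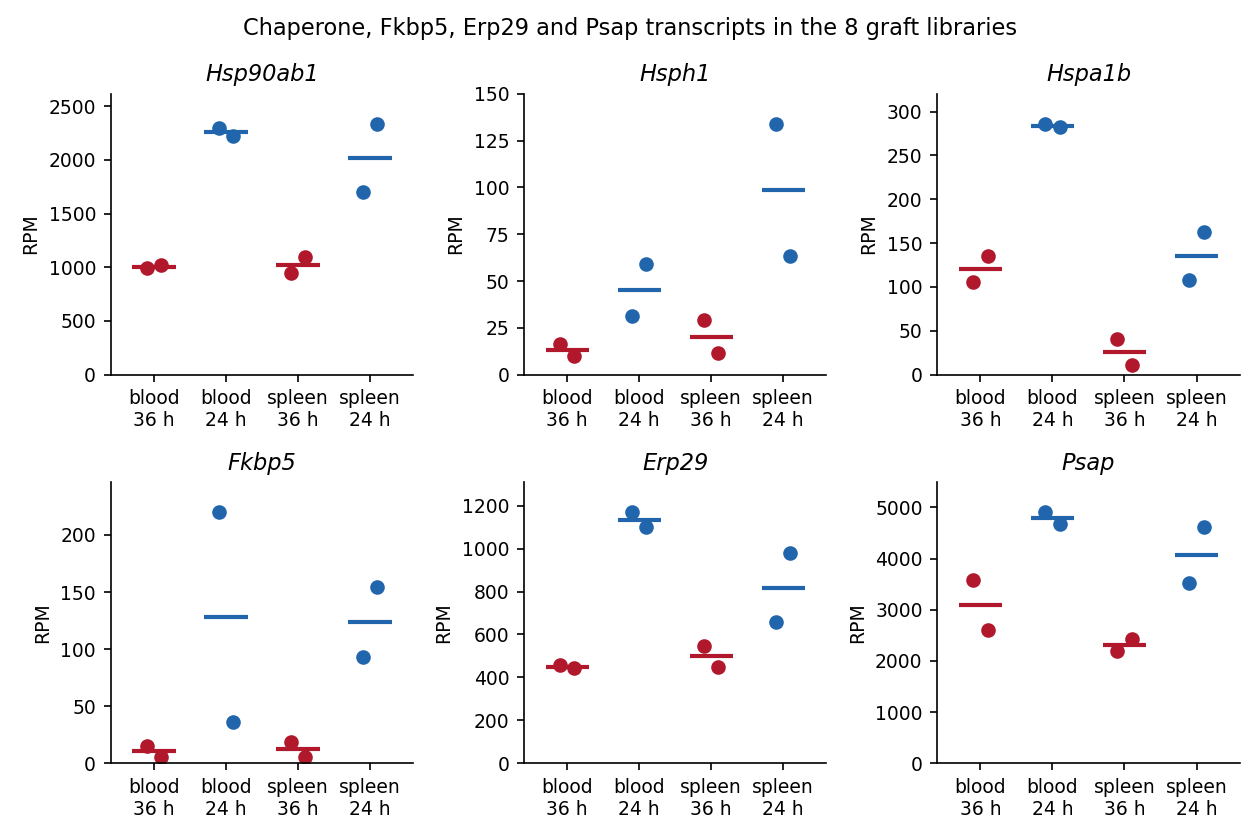
RPM in each library (points) and the mean of each pair (bars) for 6 genes that fell in both tissues, 36 h in red and 24 h in blue. In every panel both 36 h libraries of a tissue lie below both 24 h libraries of that tissue, which the rule for moving alike requires.

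Heat shock factor 1 is a textbook regulator of chaperone genes, and whether it acted in these cells was not tested. The 250 bases before the RefSeq start of Hsph1 and of Hspa1b are shown with the letters of the heat shock element in capitals. The search was for 2 adjoining inverted units, GAANNTTC or TTCNNGAA, each of which reads the same on both strands. The sequences and coordinates are those of RefSeq on GRCm38.p6, and the table holds 3 of the 5 genes looked for, Hsph1, Hspa1b and Fkbp5. Hsph1 lies at chr5:149636337-149636586 on the minus strand, with the match beginning 33 bases before the start, and Hspa1b at chr17:34959239-34959488 on the minus strand, with the match beginning 104 bases before it.
Hsph1: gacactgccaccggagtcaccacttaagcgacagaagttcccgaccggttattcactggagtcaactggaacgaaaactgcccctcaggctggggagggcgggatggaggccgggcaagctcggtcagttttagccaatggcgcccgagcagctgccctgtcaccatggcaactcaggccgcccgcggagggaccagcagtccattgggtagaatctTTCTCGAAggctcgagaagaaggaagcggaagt
Hspa1b: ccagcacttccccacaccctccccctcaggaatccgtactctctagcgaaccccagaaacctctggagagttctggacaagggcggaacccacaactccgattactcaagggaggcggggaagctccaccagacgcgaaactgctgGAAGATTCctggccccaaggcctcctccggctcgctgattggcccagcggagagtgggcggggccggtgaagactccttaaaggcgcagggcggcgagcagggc
Each sequence holds 1 match. Such a match stood in 12.8% of the 32851 promoters in the table, in 10.2% of the 11682 promoters of tested genes and in 23.5% of the 34 promoters that belong to the heat shock and unfolded protein list. Of the 32 genes that fell alike in both tissues 25 had promoters in the table, and 6 of these 35 promoters, 17.1%, held it. They belong to Hspa1b, Hsph1, Pick1, Psap and Rpl18, and Hsph1 counts with 2 overlapping promoters that share the same match. Hsph1 and Hspa1b had been looked for because they fell. The difference between these shares was not tested. The longer element, in which another GAA or TTC unit follows after the same gap on either strand, was in 0.466% of all promoters and in neither sequence shown. In Fkbp5 these letters were not in the 250 bases. The promoters of Hsp90aa1 and Hsp90ab1 were not analysed here.

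The wider chaperone and stress lists can be read by their counts. Of 32 heat shock and unfolded protein genes tested, 4 fell (Hsph1, Hspa1b, Hsp90aa1 and Hsp90ab1) and 1 rose, where 0.339% of all genes fell and 1.60% rose, with a median log2 difference of -0.25 beside 0.19 over all genes. The gene that rose was Gclm, which makes glutathione and is a target of the oxidant response, not a chaperone. It had 23.7 and 12.7 RPM in blood and 73.2 and 63.6 in spleen at 36 h, against 10.96 and 0 RPM in blood and 28.5 and 2.19 in spleen at 24 h (adjusted p = 0.0401). Its call held in 2 of 8 fits with a library left out, and adjusted p was 0.23 without the spleen library of 24 h labelled C (limma). The endoplasmic reticulum members of that list did not pass: Hspa5, the resident Hsp70, had a log2 difference of -0.35 (adjusted p = 0.408), Hsp90b1 -0.18 and Calr 0.05, while Xbp1, the transcription factor of the unfolded protein response, had -0.57 (adjusted p = 0.0861). That list was chosen with earlier results of these data known. A list of heat shock factor 1 chaperone genes was put together after the fallers had been seen and holds several of them. Neither list gives independent support. In the heat shock factor 1 list 5 of 33 genes fell and 0 rose, 30 had a log2 difference below 0, and 12 were lower without overlap in each tissue. Over all genes 36.7% were below 0 and 2.64% lower without overlap. Unadjusted p was under 0.05 for 12 lower and 1 higher member, and voom called 4 lower and 1 higher, where over all genes 3.91% were lower and 12.1% higher unadjusted and 0.430% and 2.98% by voom. Beyond those named, Dnajb1, an Hsp40, had 54.8 and 112 RPM in blood and 92.9 and 63.6 in spleen at 36 h, against 145 and 199.8 RPM in blood and 123 and 179 in spleen at 24 h and just missed the threshold (adjusted p = 0.0579). The summed level of the list was 3438 and 3725 RPM in blood and 3653 and 3803 RPM in spleen at 36 h, against 5974 and 6105 RPM in blood and 5109 and 6068 RPM in spleen at 24 h. The cytosolic chaperonin subunits in it, Cct2 to Cct8 and Tcp1, did not pass one by one. Of 18 glucocorticoid-induced genes, a list also made afterwards, only Fkbp5 was called, and the median log2 difference was 0.01.

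**Figure D3:**
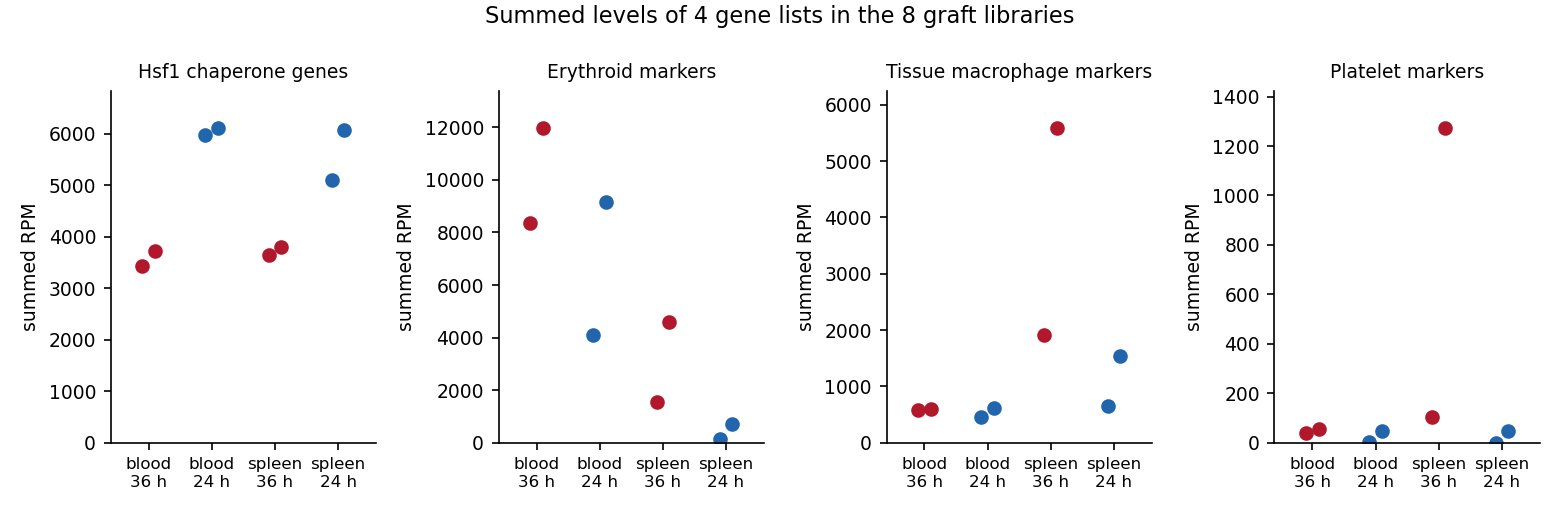
Summed RPM in each library of the heat shock factor 1 chaperone list and of erythroid, tissue macrophage and platelet markers, 36 h in red and 24 h in blue, with the lower library of each pair drawn on the left. The chaperone sum separates the times in both tissues, whereas the other 3 separate them in spleen and overlap in blood. The chaperone list was put together after the fallers had been seen and holds several of them.

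Outside the cytosolic chaperones, single genes of other roles also fell. Erp29, a chaperone-like protein of the endoplasmic reticulum, had 459 and 442 RPM in blood and 546 and 449 in spleen at 36 h, against 1170.1 and 1101 RPM in blood and 659 and 978 in spleen at 24 h. No 36 h library reached any 24 h library, and the log2 difference of -1.01 ± 0.14 (SE) (adjusted p = 0.00121) kept its call whichever library was left out. A fit to the 12 grafts alone ended the call of Erp29. Gpr107, a membrane protein of the Golgi, had 16.2 and 19.7 RPM in blood and 12.7 and 4.38 in spleen at 36 h, against 89.4 and 70.99 RPM in blood and 23.7 and 30.2 in spleen at 24 h (adjusted p = 0.0195), again without overlap. Relt, a receptor of the TNF receptor family, had 56.1 and 69.7 RPM in blood and 71.01 and 67.9 in spleen at 36 h, against 168 and 157 RPM in blood and 105 and 111 in spleen at 24 h (adjusted p = 0.0265). Pi16, a peptidase inhibitor, averaged 84.9 ± 26.5 RPM at 36 h and 179 ± 66.0 RPM at 24 h (SD, n = 4 each; limma adjusted p = 0.0232). Galnt9, which starts O-linked glycosylation, spanned 20.2 to 32.4 RPM at 36 h and 52.1 to 96.8 RPM at 24 h. Plaa, a ubiquitin-binding cofactor of the p97 segregase, spanned 23.7 to 34.2 RPM at 36 h and 69.2 to 81.9 RPM at 24 h, and Upf3a, of the nonsense-mediated decay machinery, 34.6 to 62.2 RPM at 36 h and 70.6 to 120.1 RPM at 24 h. Their log2 differences were -1.50, -1.29 and -1.11 (limma adjusted p = 0.0396, 0.0401 and 0.0354). All of these genes lie below every 24 h library in every 36 h library. Left out one at a time, a library ended the call of each of Gpr107, Relt, Pi16, Galnt9, Plaa and Upf3a at least once, with adjusted p up to 0.086, 0.10, 0.11, 0.12, 0.13 and 0.13 in that order. This was Galnt9 without the blood library of 36 h labelled B and the others without the spleen library of 24 h labelled C.

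Tpt1, the translationally controlled tumour protein, and Rpl18, of the large ribosomal subunit, both fell. Tpt1 had 96.8 and 104 RPM in blood and 111 and 85.03 in spleen at 36 h, against 292 and 290.1 RPM in blood and 126 and 383 in spleen at 24 h. For Tpt1 the log2 difference was -1.35 (adjusted p = 0.0118). Rpl18 had 152 and 178 RPM in blood and 221 and 195 in spleen at 36 h, against 452 and 458 RPM in blood and 245 and 383 in spleen at 24 h. For Rpl18 the log2 difference was -1.01 (adjusted p = 0.0232, limma). The lower of the spleen libraries at 24 h came close to those at 36 h in both genes. Without the spleen library of 24 h labelled C their log2 differences were -0.95 and -0.85 with adjusted p of 0.077 and 0.14. Both have processed pseudogenes that can share their reads. Across the 76 ribosomal protein genes tested 2 fell (Rpl18 and Rpl8) and 1 rose, where 0.339% of all genes fell and 1.60% rose. Of the 76, 51 had a log2 difference below 0, against 36.7% of all genes, with a median of -0.21. The riser was Rps15a, of the small subunit, with 72.3 and 98.2 RPM in blood and 81.97 and 132 in spleen at 36 h, against 24.5 and 14.9 RPM in blood and 63.98 and 46.01 in spleen at 24 h. For Rps15a the log2 difference was 1.50 (adjusted p = 0.0125). Rpl8 spanned 1366 to 1813 RPM at 36 h and 1826 to 2826 RPM at 24 h (log2 -0.55, adjusted p = 0.0169). Eno1, the glycolytic enolase, had 144 and 141 RPM in blood and 106 and 106 in spleen at 36 h, against 299.8 and 251 RPM in blood and 177 and 221 in spleen at 24 h (log2 -0.92, adjusted p = 0.026), with nearly the same values listed for Eno1b, so the split of reads between the 2 is uncertain. With a library left out, the calls of Rps15a, Rpl8 and Eno1 held in 5, 6 and 3 of 8 fits. Without the spleen library of 24 h labelled C their adjusted p values were 0.076, 0.10 and 0.12 (limma). Named after their values were seen, Lgals3, the galectin-3 of macrophages, spanned 1142 to 1525 RPM at 36 h and 1855 to 2838 RPM at 24 h. Vim, an intermediate filament, spanned 897 to 1506 RPM at 36 h and 1707 to 2063 RPM at 24 h, and Tmsb10, which binds actin monomers, 356 to 493 RPM at 36 h and 555 to 909 RPM at 24 h. All 3 passed, with adjusted p of 0.00751, 0.0401 and 0.0101 (limma).

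Genes of lipid transport moved in both directions. Apoe, the apolipoprotein through which macrophages pass on cholesterol, had 5831 and 5762 RPM in blood and 4416 and 6148 in spleen at 36 h, against 3537 and 3155 RPM in blood and 1441 and 2749.8 in spleen at 24 h. Every 36 h library was above every 24 h library, with a log2 difference of 1.09 ± 0.25 (SE) (adjusted p = 0.0297). Apoc2, the cofactor of lipoprotein lipase, had 1393 and 1680.1 RPM in blood and 995 and 1056 in spleen at 36 h, against 628 and 578 RPM in blood and 399 and 688 in spleen at 24 h. For Apoc2 the log2 difference was 1.15 (adjusted p = 0.0118). Its reads overlap those of the joined transcript with its neighbour Apoc4 and cannot be told apart from them. Lpl, the lipase itself, had 73.2 and 131 RPM in blood and 80.2 and 156 in spleen at 36 h, against 3.94 and 36.4 RPM in blood and 36.4 and 18.8 in spleen at 24 h. For Lpl the log2 difference was 2.46 (adjusted p = 0.0393). Enzyme, cofactor and apolipoprotein were thus all higher in all 4 libraries of 36 h. Abcg1, which exports cholesterol to high-density lipoprotein, had 89.4 and 95.1 RPM in blood and 129.7 and 138 in spleen at 36 h, against 197 and 193 RPM in blood and 141 and 248 in spleen at 24 h. Npc2, which carries cholesterol out of the lysosome, spanned 986 to 1168 RPM at 36 h and 1366 to 1762 RPM at 24 h. These 2 fell, with log2 differences of -0.78 and -0.60 (limma adjusted p = 0.0481 and 0.0495). Of 29 lipid-handling genes tested, 3 rose and 2 fell, where 1.60% of all genes rose and 0.339% fell. With limma 8 were higher and 4 lower at an unadjusted p under 0.05, where 12.1% and 3.91% of all genes were. Voom called 3 higher and 1 lower, where it called 2.98% and 0.430% of all genes. The median log2 difference was 0.39 beside 0.19 over all genes. Pparg, the lipid-sensing nuclear receptor, had 104 and 112 RPM in blood and 132 and 101 in spleen at 36 h, against 73.2 and 49.5 RPM in blood and 51.3 and 78.4 in spleen at 24 h and did not pass (adjusted p = 0.12). Nor did Cd36, a scavenger receptor, with 110.4 and 149 RPM in blood and 60.05 and 74.9 in spleen at 36 h, against 93.8 and 30.7 RPM in blood and 35.5 and 21.9 in spleen at 24 h (adjusted p = 0.0918). The spleen libraries also held more tissue macrophage RNA at 36 h: the 16 markers summed to 1908 and 5584 RPM in spleen at 36 h, against 659 and 1549 RPM in spleen at 24 h, with C1qa at 215 and 823 RPM against 28.5 and 115 RPM, and their part in the spleen values was not tested. In blood the same sum was 580 and 597 RPM at 36 h and 452 and 616 RPM at 24 h, and Vcam1, Cd163, Timd4, Mertk, Folr2 and Marco were listed at 0 in all 4 libraries. Of the 16 markers 1 was called over both tissues, Adgre1, where 1.60% of all genes rose. Adgre1 was also higher in blood alone, with 259.8 and 226 RPM at 36 h against 160.0 and 91.1 RPM at 24 h (limma adjusted p = 0.0293). The part of macrophage RNA in the blood values was not tested either. Blood log2 differences were 0.79 for Apoe, 1.34 for Apoc2 and 2.86 for Lpl, of which Apoc2 passed in blood alone (adjusted p = 0.026). Without the blood library of 36 h labelled B, Apoc2 had a log2 difference of 1.09 (adjusted p = 0.067). Without the spleen library of 36 h labelled C, Apoe had 0.97 (adjusted p = 0.12), and without the spleen library of 24 h labelled C, Lpl had 2.23, Abcg1 -0.58 and Npc2 -0.52 (limma adjusted p = 0.17, 0.24 and 0.22).

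**Figure D4:**
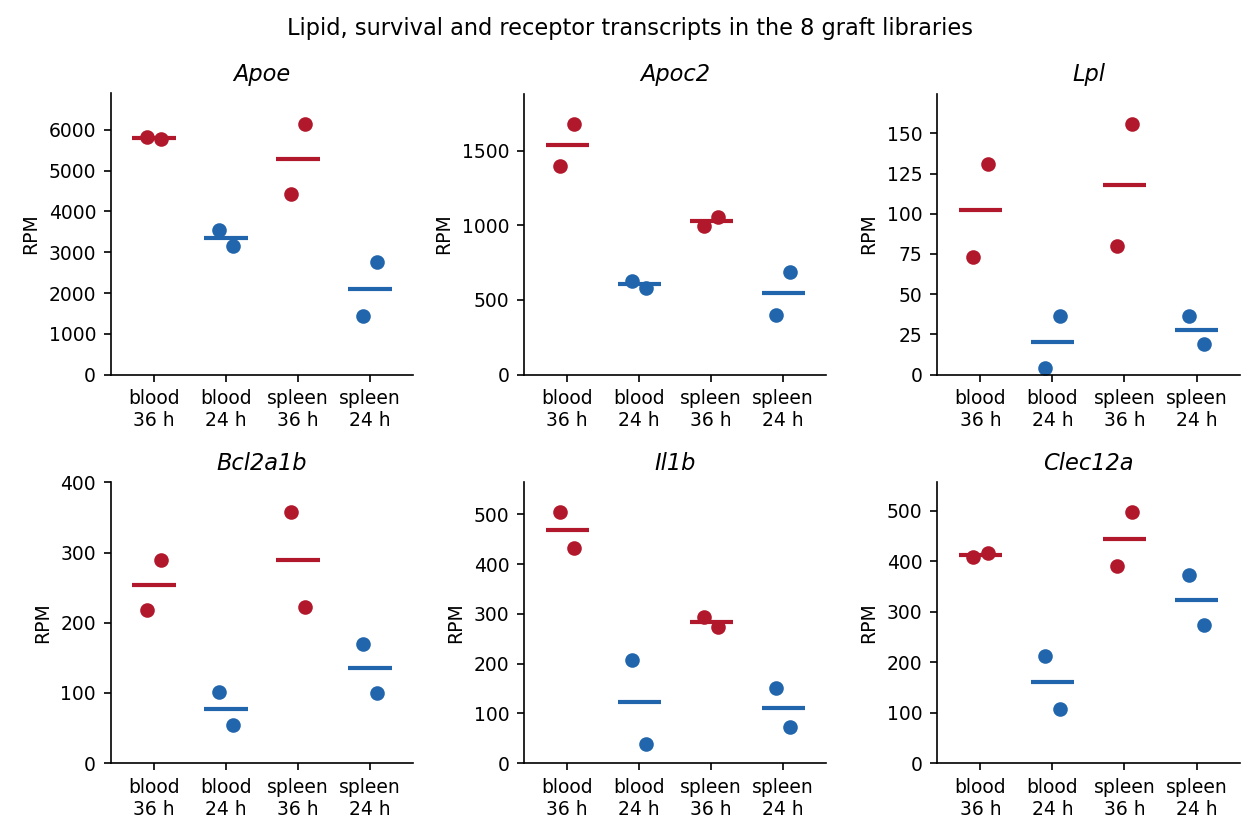
RPM in each library (points) and the mean of each pair (bars) for 6 genes that rose in both tissues, 36 h in red and 24 h in blue. All 4 libraries of 36 h lie above all 4 of 24 h in every panel.

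Of 38 lysosomal genes tested, 0 rose and 2 fell, Psap and Npc2; at an unadjusted p under 0.05, 3 were higher and 7 lower, and voom called 0 higher and 2 lower. Over all genes 1.60% rose and 0.339% fell. Unadjusted, 12.1% of all genes were higher and 3.91% lower, and voom called 2.98% higher and 0.430% lower. The median log2 difference was -0.06. Gusb, a lysosomal glucuronidase, had 152 and 132 RPM in blood and 157 and 139 in spleen at 36 h, against 231 and 366 RPM in blood and 174 and 179.7 in spleen at 24 h without overlap in either tissue but did not pass (adjusted p = 0.113). Ctsb, an abundant cathepsin, had a log2 difference of 0.11 and Lamp1, a membrane protein of the lysosome, -0.23.

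A survival gene and an inflammatory cytokine were higher at 36 h. Bcl2a1b, an anti-apoptotic member of the Bcl2 family in mice, had 219 and 290.2 RPM in blood and 358 and 223 in spleen at 36 h, against 102 and 53.9 RPM in blood and 170.4 and 100.3 in spleen at 24 h. For Bcl2a1b the log2 difference was 1.43 ± 0.26 (SE) (adjusted p = 0.00721). The copies of this family are nearly identical, so the assignment of reads among them is uncertain; Bcl2a1a and Bcl2a1d had log2 differences of 0.77 and 0.99 and did not pass (adjusted p = 0.243 and 0.112). Of 29 Bcl2 family and death genes, 1 rose and 0 fell, where 1.60% of all genes rose and 0.339% fell. Of the 29, 24 had a log2 difference above 0, against 61.2% of all genes. Their median was 0.49 beside 0.19 over all genes. Mcl1, on which myeloid cells depend, had 1272 and 1359 RPM in blood and 1072 and 1356 in spleen at 36 h, against 1170.1 and 1129 RPM in blood and 1168 and 1064 in spleen at 24 h (log2 0.15). Bcl2, its relative, had 262 and 338 RPM in blood and 212 and 208 in spleen at 36 h, against 246 and 78.00 RPM in blood and 177 and 184 in spleen at 24 h (adjusted p = 0.373). Il1b, which encodes interleukin-1 beta, had 505 and 433 RPM in blood and 294 and 273 in spleen at 36 h, against 208 and 39.00 RPM in blood and 150.3 and 73.2 in spleen at 24 h. All 4 libraries of 36 h were above all 4 of 24 h, where the blood libraries differed several-fold from each other (log2 1.89 ± 0.40 (SE), adjusted p = 0.0195). Of 26 NF-kappaB inflammatory genes tested it was the only one called, with 12 higher and 3 lower at an unadjusted p under 0.05 and 3 higher and 1 lower by voom, where over all genes 12.1% and 3.91% were so unadjusted and 2.98% and 0.430% by voom. Tnf, another cytokine gene of that list, had 50.8 and 35.5 RPM in blood and 40.3 and 14.03 in spleen at 36 h, against 63.98 and 26.7 RPM in blood and 25.4 and 37.7 in spleen at 24 h. For Tnf the log2 difference was -0.16 (adjusted p = 0.904). Dusp6, a phosphatase that shuts off ERK, rose with 211 and 302 RPM in blood and 117 and 132 in spleen at 36 h, against 62.2 and 129 RPM in blood and 99.5 and 65.7 in spleen at 24 h (adjusted p = 0.0465). It was the only call among 20 feedback inhibitors, of which 18 had a log2 difference above 0, where 61.2% of all genes did. Without the spleen library of 24 h labelled C the log2 differences were 1.24 for Bcl2a1b, 1.63 for Il1b and 0.90 for Dusp6 (limma adjusted p = 0.058, 0.12 and 0.21).

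Clec12a, an inhibitory C-type lectin, had 409 and 417 RPM in blood and 391 and 497 in spleen at 36 h, against 213 and 107 RPM in blood and 373 and 274 in spleen at 24 h. For Clec12a the log2 difference was 0.95 ± 0.20 (SE) (adjusted p = 0.0177). It was 1.44 in blood and 0.46 in spleen (limma adjusted p = 0.00734 and 0.663). The difference of Clec12a between the tissues did not pass (limma adjusted p = 0.336). Clec4a3, an inhibitory lectin of the dendritic cell immunoreceptor cluster, had 1031 and 1244 RPM in blood and 1203 and 840.2 in spleen at 36 h, against 308 and 293 RPM in blood and 963 and 538 in spleen at 24 h. Its log2 difference was 1.91 in blood and 0.48 in spleen, where the libraries overlapped. The difference between the tissues did not pass (adjusted p = 0.142). Over both tissues it passed (adjusted p = 0.00556). Of 33 Fc and paired inhibitory receptors 2 rose and 0 fell, with 13 higher and 0 lower at an unadjusted p under 0.05 and 4 higher and 0 lower by voom. Over all genes 12.1% were higher and 3.91% lower unadjusted, and 2.98% and 0.430% by voom. In the main test 1.60% of all genes rose and 0.339% fell. Clec4a1, of the same cluster, had 938 and 819.7 RPM in blood and 911 and 850.3 in spleen at 36 h, against 568 and 578 RPM in blood and 734 and 489.9 in spleen at 24 h (adjusted p = 0.0604). Fpr2, a formyl peptide receptor, had 104 and 159.6 RPM in blood and 95.1 and 166 in spleen at 36 h, against 53.03 and 0 RPM in blood and 45.6 and 55.2 in spleen at 24 h (adjusted p = 0.0473). Adgre1, the F4/80 antigen of macrophages and monocytes, had 259.8 and 226 RPM in blood and 192 and 270.4 in spleen at 36 h, against 160.0 and 91.1 RPM in blood and 181 and 161 in spleen at 24 h. For Adgre1 the log2 difference was 0.71 (adjusted p = 0.0396). Csf3r, the receptor of the neutrophil growth factor G-CSF, which Ly6C+ monocytes also carry, fell with 191 and 145 RPM in blood and 175 and 135 in spleen at 36 h, against 284 and 258 RPM in blood and 231 and 244 in spleen at 24 h. For Csf3r the log2 difference was -0.66 (adjusted p = 0.0403). Left-out libraries ended these calls for Clec12a, Clec4a3, Fpr2, Adgre1 and Csf3r, with adjusted p up to 0.11, 0.051, 0.15, 0.14 and 0.16 in that order. These were Fpr2 and Csf3r without the blood library of 36 h labelled B and the others without the spleen library of 24 h labelled C. A further 3 genes, chosen after their values were seen, were Skint3, Prdx1 and Cd48. Skint3, an immunoglobulin superfamily gene, had 141 and 182 RPM in blood and 124 and 121 in spleen at 36 h, against 9.64 and 10.96 RPM in blood and 79.3 and 65.7 in spleen at 24 h (adjusted p = 4.58e-05). Prdx1, a peroxiredoxin, had 349 and 458 RPM in blood and 487 and 588 in spleen at 36 h, against 44.7 and 93.8 RPM in blood and 337 and 289 in spleen at 24 h (adjusted p = 0.00054). Cd48 is an adhesion receptor of leukocytes and had 428 and 636 RPM in blood and 427 and 483 in spleen at 36 h, against 146 and 63.1 RPM in blood and 338 and 258 in spleen at 24 h (adjusted p = 0.00677, limma). In all 3 the blood libraries of 24 h were the low ones, and the spleen differences alone did not pass (adjusted p = 0.522, 0.398 and 0.674).

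The genes with the largest fitted rise were low and often listed at 0 in blood at 24 h. Adrb1, the beta-1 adrenergic receptor, had 34.6 and 31.1 RPM in blood and 53.04 and 38.1 in spleen at 36 h, against 1.31 and 0 RPM in blood and 16.2 and 0 in spleen at 24 h (adjusted p = 0.0044), and its call held whichever library was left out. A fit to the 12 grafts alone ended the call of Adrb1. Nop10, of the H/ACA ribonucleoproteins, had 32.4 and 67.1 RPM in blood and 54.8 and 25.4 in spleen at 36 h, against 0 and 1.31 RPM in blood and 14.5 and 2.19 in spleen at 24 h (adjusted p = 0.0066). Ly96, the MD-2 partner of the receptor Tlr4, had 27.2 and 25.4 RPM in blood and 16.2 and 21.04 in spleen at 36 h, against 1.31 and 0 RPM in blood and 6.57 and 0 in spleen at 24 h (adjusted p = 0.0118). In these 3 genes the higher spleen library of 24 h came nearest to the 36 h values. Cd86, a costimulatory ligand, had 29.8 and 29.8 RPM in blood and 32.9 and 67.9 in spleen at 36 h, against 0 and 0 RPM in blood and 19.3 and 16.7 in spleen at 24 h (adjusted p = 0.043). Clec4n, the fungal receptor dectin-2, had 29.8 and 18.4 RPM in blood and 95.1 and 102 in spleen at 36 h, against 0 and 0 RPM in blood and 26.3 and 6.14 in spleen at 24 h (adjusted p = 0.0178). Ikbkg, the regulatory subunit of the NF-kappaB kinase, had 22.3 and 17.1 RPM in blood and 36.4 and 17.1 in spleen at 36 h, against 0 and 0 RPM in blood and 17.1 and 2.19 in spleen at 24 h (adjusted p = 0.0154). In Cd86, Clec4n and Ikbkg both blood libraries of 24 h were listed at 0, where 3 reads would be 4.07 and 4.03 RPM, so the size of the rise depends on the pseudocount and no fold is given. The other low risers were Ctla2a, Cstf2, Rhbdd2, Utp15, Rgl1, Sc5d and Suz12. The first 5 were also listed at 0 in both blood libraries of 24 h, and Sc5d and Suz12 in the one labelled AC. Their values spanned 5.70 to 183 RPM at 36 h and 0 to 26.3 RPM at 24 h. Rgl1 was highest, at 183 RPM, in the spleen library of 36 h labelled C. Without the spleen library of 24 h labelled C the calls of Nop10, Ly96, Cd86, Clec4n and Ikbkg ended (limma adjusted p = 0.052, 0.08, 0.15, 0.11 and 0.099). Olr1 and Hk3 were separated in blood but overlapped in spleen. Olr1, a receptor for oxidized lipoprotein, had 10.1 and 10.1 RPM in blood and 31.1 and 7.01 in spleen at 36 h, against 0 and 0 RPM in blood and 9.20 and 0.876 in spleen at 24 h (adjusted p = 0.0493). Hk3, a hexokinase of myeloid cells, had 114 and 161 RPM in blood and 62.2 and 122 in spleen at 36 h, against 46.02 and 6.57 RPM in blood and 97.7 and 35.5 in spleen at 24 h (adjusted p = 0.0396).

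The number of genes above 0 was 10227 and 9785 in blood and 10034 and 10864 in spleen at 36 h, against 8278 and 8109 in blood and 10970 and 9354 in spleen at 24 h. The blood libraries of 24 h thus listed fewer genes than those of 36 h at a like number of reads. Of the 194 genes called higher, 94 were listed at 0 in both of them and 72 were above 0 in all 8 libraries, while 36 of the 41 called lower were above 0 in all 8. The median log2 difference was 0.58 over the 2867 tested genes listed at 0 in both blood libraries of 24 h and 0.05 over the 6593 above 0 in all 8. With only those 6593 tested, 93 genes passed, 62 higher and 31 lower. The part of this in the count of risers was not tested.

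**Figure D5:**
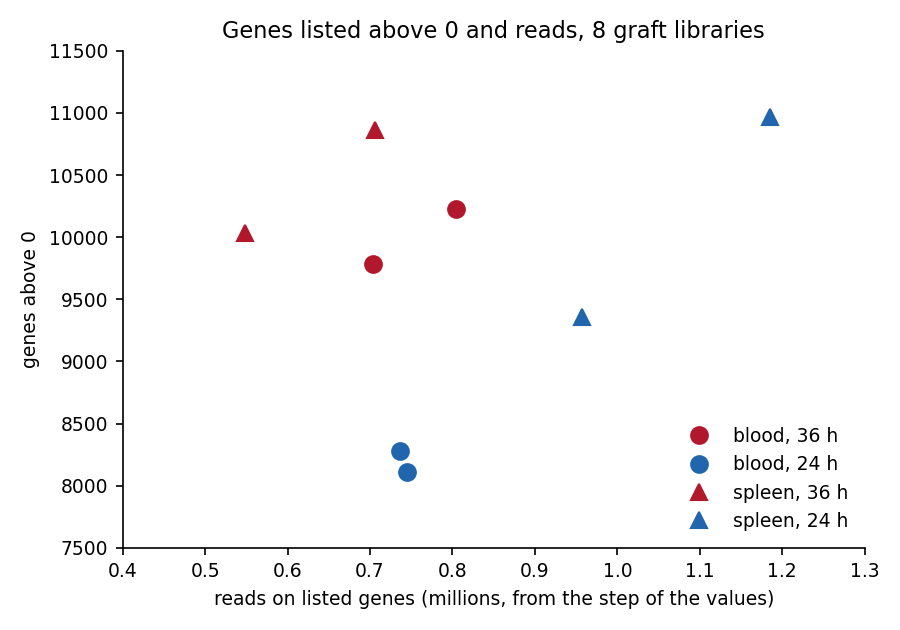
Number of genes listed above 0 (y axis, not starting at 0) against reads on listed genes (x axis) in the 8 libraries, 36 h in red and 24 h in blue, blood as circles and spleen as triangles. The 2 blood libraries of 24 h, at 8278 and 8109 genes, lie below the other 6, although their reads fall within the range of the 36 h libraries.

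The genes that define monocyte conversion did not pass the test between these times. Ly6c2, the antigen of the Ly6C+ state, had 315 and 629 RPM in blood and 341 and 539 in spleen at 36 h, against 487 and 781 RPM in blood and 1124 and 614 in spleen at 24 h. For Ly6c2 the log2 difference was -0.71 (adjusted p = 0.26). Ccr2, the chemokine receptor for exit from marrow, was higher in all 4 libraries of 36 h, with 711 and 669 RPM in blood and 896 and 611 in spleen at 36 h, against 267 and 330.4 RPM in blood and 581 and 476 in spleen at 24 h. For Ccr2 the log2 difference was 0.85 (adjusted p = 0.179). Cx3cr1, the fractalkine receptor of patrolling monocytes, was likewise higher in all 4, with 753 and 642 RPM in blood and 602 and 574 in spleen at 36 h, against 467 and 489.9 RPM in blood and 551 and 501 in spleen at 24 h. For Cx3cr1 the log2 difference was 0.35 (adjusted p = 0.13). Nr4a1, the nuclear receptor that Ly6C- monocytes need, spanned 1000.2 to 1389 RPM at 36 h and 759 to 1173 RPM at 24 h (adjusted p = 0.429). Cebpb spanned 1299.5 to 2195 RPM at 36 h and 1697 to 2356 RPM at 24 h. Its relatives Cebpa and Cebpd spanned 58.3 to 70.98 RPM at 36 h and 75.8 to 109 RPM at 24 h, and 141 to 174 RPM at 36 h and 161 to 223 RPM at 24 h. The 3 had log2 differences of -0.21, -0.42 and -0.32 (limma adjusted p = 0.485, 0.507 and 0.408). Klf4, a factor of monocyte differentiation, had 0.30, Spi1, the myeloid factor PU.1, -0.06, and Itgax, an integrin of Ly6C- monocytes and dendritic cells, 0.62, all with adjusted p of 0.41 or more. Cd300e, an activating receptor of non-classical monocytes, had 331 and 257 RPM in blood and 336 and 293 in spleen at 36 h, against 265 and 150.3 RPM in blood and 181 and 115 in spleen at 24 h (adjusted p = 0.115). H2-Ab1, of MHC class II, spanned 384 to 1271 RPM at 36 h and 565 to 1719.7 RPM at 24 h. Fos, an immediate early gene, was higher in blood than in spleen at both times, at 814 and 731 RPM in blood and 67.5 and 117 RPM in spleen at 36 h, against 568 and 999 RPM in blood and 42.9 and 40.8 RPM in spleen at 24 h.

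As lists, 27 of 32 Ly6C- monocyte genes had a log2 difference above 0, where 61.2% of all genes did, and 7 were higher without overlap in each tissue, where 4.96% of all genes were. Only Apoc2 was called, with a median log2 difference of 0.33 beside 0.19 over all genes. The 19 Ly6C+ monocyte genes summed higher at 36 h in blood and lower in spleen, each without overlap. In blood the sum was 24100 and 25535 RPM at 36 h and 21221 and 23508 RPM at 24 h. In spleen it was 19692 and 22447 RPM at 36 h and 27436 and 30194 RPM at 24 h. Of the 19 genes 13 had a log2 difference below 0 over both tissues, where 36.7% of all genes did. Their median was -0.45 over both tissues, -0.09 in blood and -0.49 in spleen. The only one called, Plac8, was higher: it had 4326 and 6092 RPM in blood and 4671 and 5533 in spleen at 36 h, against 1758 and 1561 RPM in blood and 6122 and 4503 in spleen at 24 h (log2 1.63 in blood, adjusted p = 0.00231, and -0.05 in spleen; adjusted p = 0.0589 for the difference between tissues). Over both tissues its call held in 2 of 8 fits with a library left out, with an adjusted p of 0.21 without the spleen library of 24 h labelled C. It ended with quantile and median-of-ratios scaling (limma adjusted p = 0.0531 and 0.0504). F13a1, a coagulation factor gene of Ly6C+ monocytes, had 137 and 76.7 RPM in blood and 186 and 142 in spleen at 36 h, against 223 and 207 RPM in blood and 307 and 274 in spleen at 24 h (adjusted p = 0.282). Of a list of 21 dendritic cell and MHC class II genes, the costimulatory ligand Cd86 was the only one called. Adhesion and chemotaxis receptors had 1 riser of 34, Fpr2, and complement and scavenger genes 2 of 29, Clec4n and Olr1. Glycolysis and hypoxia genes had 1 riser, Hk3, and 1 faller, Eno1, of 29. Over all genes 1.60% rose and 0.339% fell by limma. At an unadjusted p under 0.05 these shares were 12.1% and 3.91%, and by voom 2.98% and 0.430%. With limma, 0 of 40 interferon response genes passed (5 higher and 3 lower at an unadjusted p under 0.05; 1 higher and 1 lower by voom) and 0 of 25 immediate early genes (2 higher and 1 lower unadjusted; 0 by voom). The same held for 0 of 43 monocyte transcription factor genes (3 and 1 unadjusted; 1 higher by voom), 0 of 74 oxidative phosphorylation genes (5 and 6 unadjusted; 0 by voom) and 0 of 45 DNA replication and mitosis genes (1 and 5 unadjusted; 0 by voom).

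Markers of other cells named libraries that stand apart. Pf4, a platelet chemokine, had 7.45 and 4.38 RPM in blood and 23.7 and 1063 in spleen at 36 h, against 0 and 1.31 RPM in blood and 2.63 and 0 in spleen at 24 h (adjusted p = 0.0198). Almost all of it was in the spleen library of 36 h labelled C, without which the call ended (limma adjusted p = 0.0675). The platelet genes Gp1ba, Gp5, Gp6 and Tubb1 were listed at 0 in all 8. Platelet markers summed to 103 and 1272 RPM in spleen and 38.1 and 53.9 RPM in blood at 36 h, against 0 and 46.4 RPM in spleen and 1.31 and 49.1 RPM in blood at 24 h. Gzma, a granzyme of natural killer and T cells, had 17.5 and 2.63 RPM in blood and 32.9 and 90.7 in spleen at 36 h, against 0 and 0 RPM in blood and 9.20 and 0 in spleen at 24 h (adjusted p = 0.0231). Klrd1, a natural killer receptor, had 1.31 and 5.70 RPM in blood and 25.4 and 29.8 in spleen at 36 h, against 0 and 0 RPM in blood and 3.51 and 0 in spleen at 24 h (adjusted p = 0.0379). They were the 2 called of 19 T and NK cell markers, where 1.60% of all genes rose. All 12 erythroid markers tested had a log2 difference above 0, where 61.2% of all genes did. With limma 0 of them passed (8 higher at an unadjusted p under 0.05, 0 by voom). Over all genes 12.1% were higher unadjusted. B cell markers summed to 61.3 and 93.8 RPM in blood and 495 and 1256 RPM in spleen at 36 h, against 123 and 199.8 RPM in blood and 407 and 742 RPM in spleen at 24 h. With limma 0 of 12 were called (1 higher unadjusted, 0 by voom). Neutrophil markers summed to 301 and 334 RPM in blood and 337 and 422 RPM in spleen at 36 h, against 404 and 613 RPM in blood and 384 and 430 RPM in spleen at 24 h. Elane, Stfa1, Stfa2 and BC100530 were listed at 0 in all 8, and Csf3r was the 1 of 17 called, where 0.339% of all genes fell. Plasmacytoid and conventional dendritic cell markers had 0 called of 6 and of 12 (1 lower and 1 higher unadjusted; 1 lower and 1 higher by voom).

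The levels before transfer and at 48 h are given for the leading genes as a description, since the 36 h libraries would enter both comparisons. Hsp90ab1 had 1151 and 1160.4 RPM in marrow monocytes before transfer and 1684 and 2200.3 RPM in blood and 1836 and 1938 RPM in spleen at 48 h. The 36 h grafts, at 947 to 1095 RPM, lay below all of these and below the 24 h grafts. Fkbp5 had 213 and 217 RPM in marrow monocytes before transfer and 57.4 and 119.6 RPM in blood and 103 and 50.8 RPM in spleen at 48 h, and its 36 h values of 5.70 to 18.4 RPM were the lowest of the graft series. Hspa1b had 6.57 and 4.38 RPM in marrow monocytes before transfer and 199 and 364 RPM in blood and 129.7 and 86.3 RPM in spleen at 48 h. Erp29 had 775 and 808 RPM in marrow monocytes before transfer and 519 and 349.7 RPM in blood and 660.4 and 735 RPM in spleen at 48 h. For Apoe the values were 1032 and 1119.6 RPM in marrow monocytes before transfer and 2970.2 and 4593 RPM in blood and 3093 and 3590.2 RPM in spleen at 48 h, all below the 4416 to 6148 RPM of 36 h except the higher blood library of 48 h, which lay within that range. Bcl2a1b had 3.94 and 6.13 RPM in marrow monocytes before transfer and 387 and 394 RPM in blood and 316 and 467 RPM in spleen at 48 h. Il1b had 5.70 and 8.76 RPM in marrow monocytes before transfer and 383 and 255 RPM in blood and 281 and 297 RPM in spleen at 48 h, so both were lower before transfer than in any graft. Adrb1 had 0.876 and 1.31 RPM in marrow monocytes before transfer and 107 and 139 RPM in blood and 49.96 and 114 RPM in spleen at 48 h.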

How the data were processed

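The libraries are bulk RNA-seq of sorted mouse monocytes, made with oligo dT beads per the labels' protocols. Per the submitters' processing notes bcl2fastq, HISAT 0.1.5, SAMtools and HOMER were used with the build mm9; the counting options, the annotation and the scaling are not given in the sources used here. The deposited values are treated as scores, since the authors' table holds whole numbers scaled to nearly equal library totals of 2281423 to 2282712, so they are not counts. Each library was divided by its total and multiplied by 1000000 to give RPM. The values were spaced in even steps in 24 of 26 libraries, within a rounding tolerance of 0.5, which gave the reads per library. In the 8 grafts 1 read is worth 0.844 to 1.825 RPM and 3 reads 2.53 to 5.48 RPM.

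Genes with at least 2 RPM in at least 2 libraries were tested, 12096 of 24421. limma 3.58.1 with a trend (R 4.3.3) was fitted to log2 of RPM plus 1 over all 26 libraries as 13 group means, and p-values were adjusted by the Benjamini-Hochberg method over all genes tested, with a threshold of 0.05. The change over both tissues is the mean of the blood and spleen differences. Within a tissue, libraries of the same letter did not deviate together across times, with correlations of the replicate differences of -0.017 to 0.012. Whether blood and spleen libraries of 1 letter share animals was not tested, and the labels do not explain the letters AC, B and C. The comparison, the naming rule and the 27 gene lists were chosen with earlier results of these data known, and 2 lists were added after the named genes were seen. Named were the 15 genes of largest change in each direction that moved alike with at least 20 RPM at the higher time, up to 4 called members of each list, 15 monocyte genes whatever their test, and up to 5 tissue differences in each direction. Genes without a usual symbol were left out of the first group. Other genes are said to be chosen after their values were seen, or stand as members of a list. Alternatives were 14 other settings and leaving out each of 8 libraries; voom on the recovered reads was chosen after seeing the data. Promoter sequences are from RefSeq on GRCm38.p6, and no coordinates of mm9 are given.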

Additional observations from a re-analysis of the deposited data

Results flagged for a closer look

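The change from 24 h to 36 h differed between blood and spleen for 57 genes by the test of that difference (limma, adjusted p under 0.05). Blood minus spleen log2 differences were 5.40 for Caml, which takes part in membrane insertion of tail-anchored proteins, 6.87 for Exoc4, of the exocyst, 5.72 for Mtmr12, 7.39 for Specc1 and 6.66 for Zfp961, with adjusted p of 0.00723, 0.00675, 0.0421, 0.00864 and 0.0257 in that order. All 5 were listed at 0 in both blood libraries of 24 h, so these sizes depend on the pseudocount. Caml had 29.8 and 42.5 RPM in blood and 18.4 and 42.5 RPM in spleen at 36 h, against 0 and 0 RPM in blood and 18.4 and 56.5 RPM in spleen at 24 h, so the libraries separate in blood and overlap in spleen. Exoc4 had 16.2 and 34.2 RPM in blood and 5.26 and 12.7 RPM in spleen at 36 h, against 0 and 0 RPM in blood and 20.2 and 90.7 RPM in spleen at 24 h.

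Vps39, of a complex that tethers late endosomes to lysosomes, differed the other way, by -3.47 (limma adjusted p = 0.048). It had 14.9 and 28.5 RPM in blood and 54.8 and 58.3 RPM in spleen at 36 h, against 101.7 and 46.9 RPM in blood and 29.4 and 8.33 RPM in spleen at 24 h. Irf8, a transcription factor of monocyte and dendritic cell development, had 731 and 683 RPM in blood and 612 and 643 RPM in spleen at 36 h, against 599 and 475 RPM in blood and 786 and 821 RPM in spleen at 24 h. Both 36 h libraries thus lay above 24 h in blood and below it in spleen. The difference of 0.76 between log2 changes of 0.41 in blood and -0.36 in spleen did not pass (limma adjusted p = 0.383).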

How the results depend on the processing

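Counts below run over both tissues, blood, spleen, the tissue difference and genes moving alike, where the counts as reported were 235, 388, 70, 57 and 146. Quantile normalization gave 132 over both tissues, 223 in blood and 86 alike, and ended 16 of the calls of single genes, among them Hspa1b, Abcg1, Npc2, Rpl8 and Csf3r. A pseudocount of 5 RPM gave 109 in spleen and 32 for the difference, no filter gave 90 for the difference, and a filter of 10 RPM gave 6 in spleen and 37 for the difference. Genes above 0 in all 8 libraries gave 93, 166, 0, 7 and 72, with 491 at an unadjusted p under 0.05 in spleen. The 8 libraries alone gave 0 over both tissues, 0 in blood, 0 for the difference and 0 alike, and the 12 grafts alone gave 60 over both tissues, 13 in blood and 15 alike. Of those 60 calls, 28 were among the 235. Among the 73 named genes the fit to the 12 grafts kept only the call of Hsp90ab1. Array weights gave 24, 89, 0, 1 and 16, a fit without trend 131 for the difference, and voom 413 over both tissues and 238 alike. A replicate block, although libraries of the same letter did not deviate together across times, gave 358 over both tissues and 618 in blood, and with the 8 libraries alone 0 for each of the 5, where 914 genes over both tissues had an unadjusted p under 0.05. Leaving out 1 library gave 50 to 652 over both tissues, 77 to 801 in blood, 36 to 351 in spleen, 18 to 370 for the difference and 34 to 485 alike. The cause was not tested.

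Over 73 named genes, 1082 values kept direction and side of the threshold, 478 lost the threshold, 6 gained it and 16 changed sign. The sign changes were those of Irf8 (-0.0006 with median-of-ratios scaling, -0.0589 to 0.1076 with 1 library left out), Vps39 (-0.0018 with the pseudocount of 5, -0.0038 with voom, -0.3868 to 0.4646 left out), H2-Ab1 (-0.5438 to 0.2579), Spi1 (-0.1983 to 0.0867), Specc1 (-0.0387 to 1.9955) and Zfp961 (-0.3675 to 1.521), none of which was called over both tissues. With 2 libraries a group, 0.844 to 1.825 RPM a read limits what low genes can show.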
